A study of Sus scrofa with 32 samples.

Results

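RPS21, GSTO2 and PON3 were examined in the loin muscle of 4 breed groups of pigs, as 3 genes of 17930 listed in at least 1 library. They were picked by symbol because their reads ran from near 0 to well above it between pigs. Their levels are therefore given below as a description and without a test. The files list them as ENSSSCG00000021825 (RPS21), ENSSSCG00000030271 (GSTO2) and ENSSSCG00000029515 (PON3).

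RNA from the longissimus dorsi, the long muscle of the back, was sequenced from 32 pigs aged 6 months, with 8 libraries in each group. The groups were Duroc x Landrace x Dapulian (DLDPL), Landrace x Dapulian (LDPL), Dapulian (DPL), an indigenous Chinese breed, and Landrace (L), a lean commercial breed. All 32 pigs carry the genotype label wild type and were reared under similar conditions and feed, and the labels give no sex, litter, batch or date. The titles number L in a series of its own, while DLDPL, LDPL and DPL share another in which no number repeats. Whether L was collected or handled apart is not stated, and such a difference could not be told apart from breed. The study asked how muscle transcription varies between breeds.

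RPS21 is a protein of the small ribosomal subunit, the particle that binds messenger RNA and starts translation, and cells normally hold ribosomal proteins in fixed proportion to each other. GSTO2 is an omega-class glutathione transferase, an enzyme that uses glutathione to reduce dehydroascorbate, the oxidised form of vitamin C, and its closest relative is GSTO1. PON3 is a paraoxonase, a lactone-cleaving enzyme that in humans is made mainly in the liver and travels with high-density lipoprotein. PON1 and PON2 are its relatives.

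Depth was 21.7 to 29.7 M reads per library (M, 1000000), with 14241 to 15664 genes listed. A gene that a library did not list was counted as 0 reads. At these depths 3 reads, taken here as the limit that a count of 0 allows, equal 0.101 to 0.138 RPM (reads per M reads of the library). This limit and the intervals below cover counting error only. Over all genes, 27 of 32 libraries correlated best with the mean of the other libraries of their own group. DLDPL replicate 32 correlated at -0.13 with its own group and at 0.12 with DPL. DLDPL replicate 28 and LDPL replicate 4 also correlated best with DPL, at 0.19 and 0.23. They held 137 and 122 RPS21 reads. DPL replicate 19 correlated best with its own group, at 0.25. DLDPL replicate 32 and DPL replicate 19 stand apart in RPS21, and the results that rest on them are given with and without them. Of the 12 muscle-fibre markers looked up, 3 had a symbol in the files, and their summed level was 29760 to 78100 RPKM (RPM per kilobase of gene).

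A library was called near zero for a gene under 1 RPM and high from 4 RPM. RPS21 was near zero in 8 libraries and high in 21, and 7 of the 8 near-zero libraries were DPL. GSTO2 was near zero in 28 libraries and high in 0, and the 4 libraries in between were all LDPL. PON3 was near zero in 6 libraries and high in 17, with near-zero libraries in all 4 groups. Of all listed genes, 1052 (5.87%) had at least 1 near-zero and 1 high library.

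**Figure D1:**
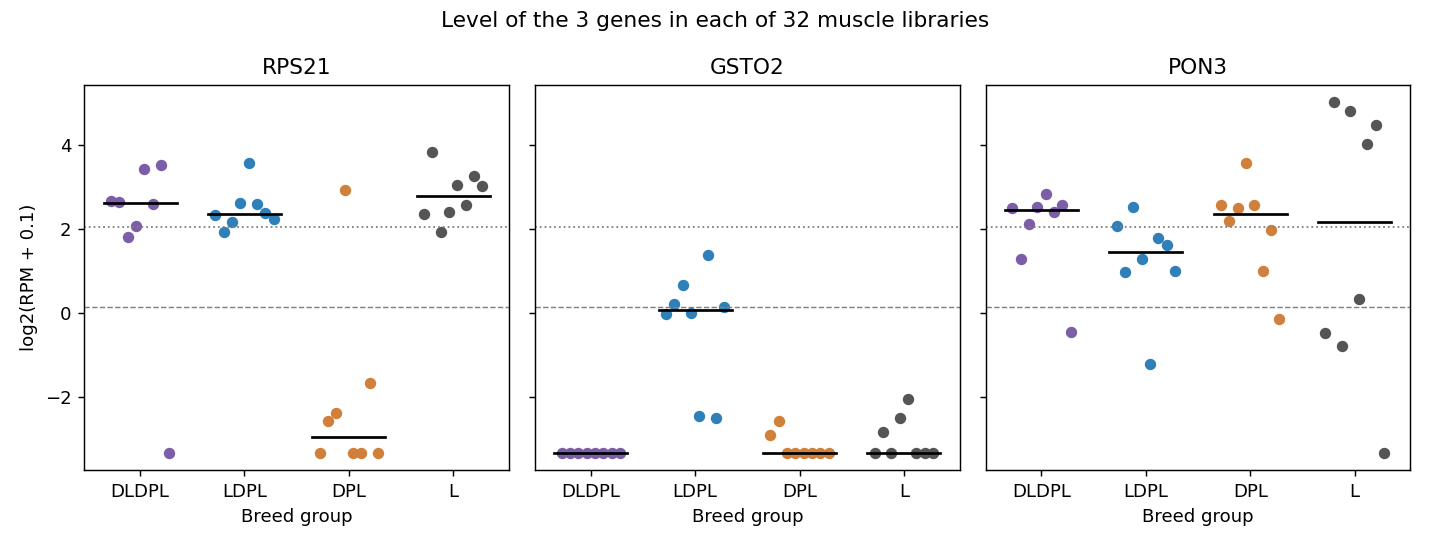
Level of RPS21, GSTO2 and PON3 in each of 32 libraries (points) as log2(RPM + 0.1), by breed group, with the group median as a black bar. The dashed and dotted lines mark 1 and 4 RPM. RPS21 is low in 7 of 8 DPL libraries, GSTO2 is above 0.5 RPM in 6 of 8 LDPL libraries, and PON3 splits the 8 L libraries into 4 high and 4 low.

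RPS21 had at most 6 reads in 7 of 8 Dapulian libraries and at least 86 reads in 23 of the 24 libraries of the other groups. DLDPL libraries held 0 reads at the lowest, 136.5 at the median and 273 at the highest. LDPL libraries held 88 reads at the lowest, 126 at the median and 284 at the highest. Among the 8 DPL libraries, replicates 7, 21, 23 and 30 held 0 reads, replicates 11 and 16 held 2 each, replicate 26 held 6 and replicate 19 held 213. L libraries held 101 reads at the lowest, 179.5 at the median and 349 at the highest. Thus 2 libraries cross the pattern: DPL replicate 19 lies within the range of the other groups, and DLDPL replicate 32, with 0 reads, lies with DPL. The DLDPL library with the next fewest reads, replicate 20, held 86. In a bulk sample, fewer cells that make a transcript and less of it per cell cannot be told apart.

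On the scale of RPM, RPS21 averaged 5.95 ± 3.70 in DLDPL, 5.79 ± 2.53 in LDPL, 0.986 ± 2.64 in DPL and 7.41 ± 3.32 in L (SD, n = 8 each). L, DLDPL and LDPL, the groups with the 3 highest means, lay within 1 SD of each other. DPL came last. Without DPL replicate 19 the DPL mean was 0.0536 ± 0.0812 (SD, n = 7), and without replicate 32 the DLDPL mean was 6.80 ± 3.04 (SD, n = 7).

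The libraries just outside the high class were DLDPL replicate 20 at 3.42, LDPL replicate 5 at 3.71 and L replicate 4 at 3.72 RPM, and the one just inside it was DLDPL replicate 25 at 4.06. No library lay between 0.216 RPM, the level in DPL replicate 26, and 3.42. That gap was 3.48 on the log2(RPM + 0.1) scale. Over the 32 libraries 23 of 12699 genes ranked (0.181%) equalled or exceeded it, with RPS21 counted among them. The genes ranked are those with at least 1 RPM in at least 1 library. Since the members were picked for such a spread, this share and those of the gaps below are a description. Within DPL alone the gap below replicate 19 was 4.59, which 13 genes (0.102%) reached. Within DLDPL the gap above replicate 32 was 5.14, which 9 genes (0.0709%) reached.

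The fitted log2 level difference of RPS21 in edgeR, over all 32 libraries, was -2.67 (standard error 0.75) for DPL over L. It was 2.42 (0.75) for LDPL over DPL and 2.35 (0.75) for DLDPL over DPL. The remaining pairs were near 0, at -0.26 for LDPL over L, -0.33 for DLDPL over L and -0.07 for DLDPL over LDPL, each with a standard error of 0.68. DPL replicate 19 alone set the size of the DPL differences. Without it and DLDPL replicate 32, DPL over L was -6.77 (0.45), LDPL over DPL was 6.51 (0.45) and DLDPL over DPL was 6.64 (0.45). Summed over libraries, the 7 DPL libraries other than replicate 19 held 10 reads and the 8 L libraries held 1559. In RPM this is 133-fold lower in DPL, a ratio of 0.00753 with a 95% exact interval of 0.00361 to 0.0139. With replicate 19 included, DPL held 223 reads, a ratio over L of 0.145 (95% exact interval 0.126 to 0.167).

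**Figure D2:**
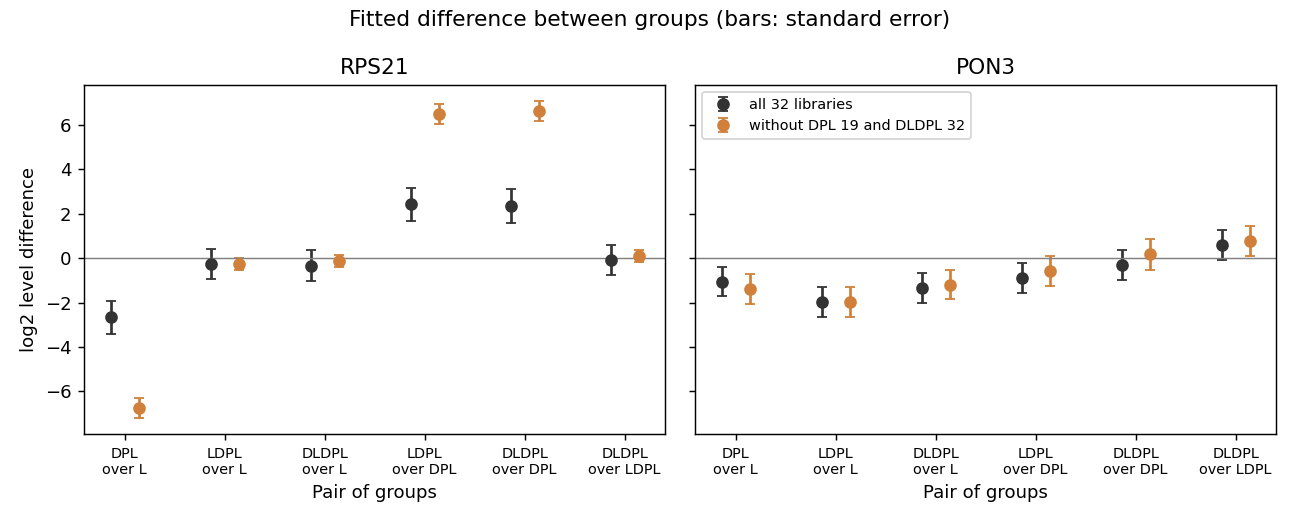
Fitted log2 level difference (points) with its standard error (bars) for RPS21 and PON3 in 6 pairs of groups, over all 32 libraries and without DPL replicate 19 and DLDPL replicate 32. For RPS21 the DPL over L difference is -2.67 over all libraries and -6.77 without these 2, while those of PON3 stay between -1.97 and 0.78 in both fits.

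Where RPS21 was present, its reads spanned the gene. The listed length is 252 bases, and coverage in libraries with at least 86 reads was 94.44 to 99.21%. In DPL replicates 11 and 16 the 2 reads covered 61.11 and 64.68% of it, and in replicate 26 the 6 reads covered 90.87%. A single read covers 125 bases in these files, so the few DPL reads did not all start at the same place.

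The near-zero pattern of RPS21 was not shared by the other ribosomal protein genes with a symbol. Of 32 small-subunit and 47 large-subunit genes looked up, 15 and 9 had a symbol in the files, and the rest were not examined. None of the 15 and 9 had a single near-zero library. The largest gap within a group was at most 0.78 on the log2 scale for any of them. Per length, RPS21 was also low where it was present. Its median was 19.97 RPKM over all 32 libraries and 24.02 RPKM over the 21 high ones, against a median of 414.3 RPKM for the small-subunit genes. These ran from 5.468 RPKM for FAU, which encodes a ubiquitin-like fusion of a small-subunit protein, to 687.4 RPKM for RPS12. Large-subunit genes ran from 252.2 RPKM for RPL27 to 5077 RPKM for RPLP1. Ribosomal protein genes have near-identical copies in the genome, and the deposited counts hold uniquely mapped reads. How many reads of RPS21 and of this family were left out for that reason is not known, so their levels are uncertain.

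**Figure D3:**
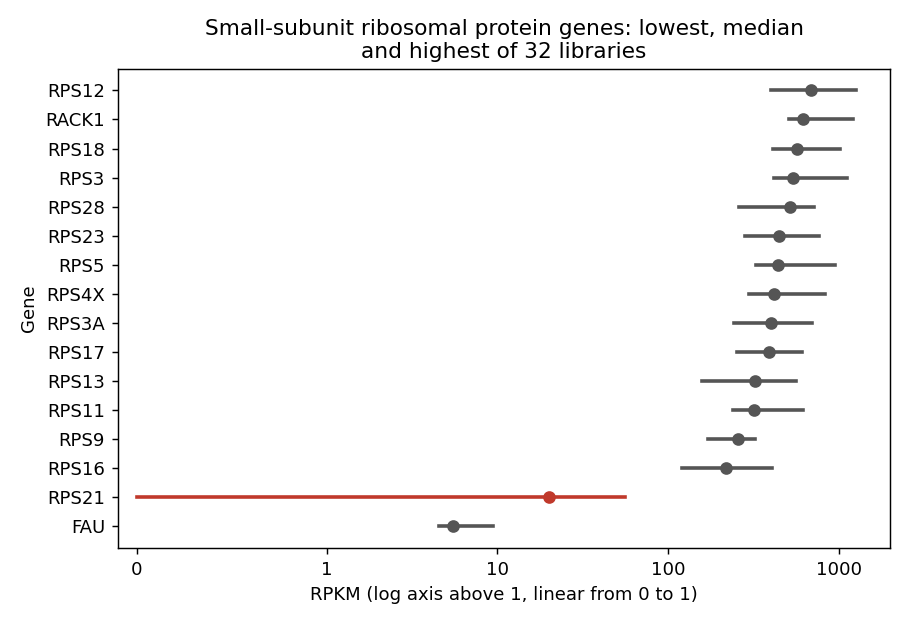
RPKM of small-subunit ribosomal protein genes over 32 libraries, with a line from the lowest to the highest library and a point at the median, on an axis that is logarithmic above 1 and linear below it. RPS21 (red) starts at 0 RPKM and has a median of 19.97 RPKM, while the other 15 genes have no library at 0.

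Ribosomal genes were also compared between groups. In DPL against L, where 38% of all 12821 genes tested were called (19.1% higher and 18.9% lower), 0 of 15 small-subunit genes were higher and 2 were lower. RPS16 was lower, at 115 ± 27.0 against 174 ± 38.9 CPM (counts scaled as RPM to the TMM-adjusted library size, SD, n = 8 each; log2 change -0.60, edgeR adjusted p = 0.00407), and RPS4X was lower by 0.33 on the log2 scale (edgeR adjusted p = 0.0115). Of the 9 large-subunit genes, RPLP2, a protein of the ribosomal stalk, was higher (log2 change 0.49, edgeR adjusted p = 0.00156). The stalk protein RPLP1 and RPL14 were lower (log2 changes -0.42 and -0.48, edgeR adjusted p = 0.0207 and 0.0320). The call of RPL14 was lost without DPL replicate 19 and DLDPL replicate 32 (adjusted p = 0.0702), and that of RPLP2 was lost with limma (adjusted p = 0.0662). The median log2 change was -0.10 for the small-subunit genes and -0.01 for the large-subunit genes, beside -0.025 over all genes tested. Adipocyte markers, 5 of 8 in the files, summed to 361 to 594 RPKM in DLDPL, 342 to 484 in LDPL, 269 to 417.5 in DPL and 446 to 545 in L. The ranges of DPL and L do not overlap, and the part of these markers in this and the later DPL against L results was not tested. The log2 changes of the called ribosomal genes, between -0.60 and 0.49, are smaller in size than the -2.67 of RPS21.

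In the other pairs 0 small-subunit genes were called. RPL11 was higher in LDPL than in L (log2 change 0.34, edgeR adjusted p = 0.00842), where 29.6% of all genes were called (14.9% higher and 14.7% lower). The call of RPL11 was lost with limma (adjusted p = 0.0896). RPL14 was higher in DLDPL than in DPL (log2 change 0.60, edgeR adjusted p = 0.0443), where 4.1% of all genes were called (1.98% higher and 2.12% lower). The call of RPL14 was lost with no filter on low counts (adjusted p = 0.0560) and without DPL replicate 19 and DLDPL replicate 32 (0.0938). The shares of all genes called were 21.9% in DLDPL against L (11.6% higher and 10.3% lower) and 2.84% in LDPL against DPL (1.29% higher and 1.55% lower). In DLDPL against LDPL the share was 0%. There edgeR called 0 genes, with 970 at an unadjusted p under 0.05, limma called 0, and DESeq2 called 26 higher and 7 lower. The comparisons with L share the same 8 L libraries, and those with DPL the same 8 DPL libraries.

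In RefSeq's pig annotation RPS21 lies between LAMA5 and CABLES2. Of these, CABLES2, a gene linked to the cell cycle, was tested here. It averaged 7.08 ± 1.32 CPM in DLDPL, 7.59 ± 0.974 in LDPL, 7.42 ± 2.53 in DPL and 6.37 ± 1.22 in L (SD, n = 8 each), and it was called in 0 of 6 pairs (edgeR adjusted p of 0.239 or more). In CABLES2 the mean level of DPL thus lay within 1 SD of the other groups, unlike that of RPS21.

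Across the 32 libraries, after centring within groups, the genes most like RPS21 in log2 CPM were INVS (Pearson r = 0.73), LRCH1 (0.70), PDE3B (0.65), CILP (0.64) and TRERF1 (0.64). These likenesses rest on the 2 libraries that cross the pattern. Without DPL replicate 19 and DLDPL replicate 32 they were 0.26, 0.24, 0.34, 0.14 and 0.31. The points share library depth, and r over 12820 genes is given as a description.

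A search took genes near zero in at least 7 of 8 DPL libraries and in at most 1 library of each other group. It found 5 of 17930 listed genes (0.0279%), RPS21 included. These limits follow the values of RPS21, so the count is a description. With L in place of DPL, 8 genes (0.0446%) met them. The 4 genes besides RPS21 were KIT, HVCN1, SLC16A12 and 1 without a symbol. KIT is a receptor tyrosine kinase of pigment and blood cells, HVCN1 a proton channel and SLC16A12 a transporter of creatine. KIT had medians of 64.5 reads in DLDPL, 37 in LDPL, 11 in DPL and 204.5 in L. HVCN1 had medians of 46 reads in DLDPL, 37.5 in LDPL, 15.5 in DPL and 54 in L. SLC16A12 had medians of 79 reads in DLDPL, 52.5 in LDPL, 18 in DPL and 50 in L. Unlike RPS21, these 3 genes had reads in every library, with DPL minima of 6, 6 and 3 reads.

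GSTO2 had more than 4 reads in 6 libraries, all of the Landrace x Dapulian cross, and at most 4 in the other 26. The 8 DLDPL libraries held 0 reads. In LDPL, replicate 14 held 62 reads, replicate 8 held 36, replicates 5, 24, 9 and 4 held 25, 24, 23 and 22, and replicates 10 and 15 held 2 each. In DPL, replicate 11 held 2 reads, replicate 7 held 1 and the other 6 held 0. In L, replicate 7 held 4 reads, replicate 5 held 2, replicate 2 held 1 and the other 5 held 0. The 6 higher LDPL libraries thus lay above all 24 libraries of the other groups, and the other 2 LDPL libraries lay within their range.

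On the scale of RPM, GSTO2 was at 0 in all DLDPL libraries, 0.997 ± 0.770 in LDPL, 0.0126 ± 0.0250 in DPL and 0.0326 ± 0.0530 in L (SD, n = 8 each). The 3 lower groups differ by few reads. Over summed reads the ratio of DPL over L was 0.435 (95% exact interval 0.0726 to 1.91). With 0 reads in DLDPL, the ratio of DLDPL over L was 0, with an upper end of the 95% exact interval of 0.739. Of the 7 L reads, 4 came from replicate 7. The 6 higher LDPL libraries lie around 1 RPM. Replicates 4 and 9, at 0.890 and 0.893, lay just inside the near-zero class and replicates 24 and 5, at 1.01 and 1.05, just outside it. At a limit of 0.5 RPM, 2 LDPL libraries would be near zero. Within LDPL the gap between 2 and 22 reads was 2.44 on the log2(RPM + 0.1) scale, which 55 of 12699 genes (0.433%) reached. GSTO2 is among the genes ranked only through LDPL, since its highest level elsewhere was 0.144 RPM, in L.

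GSTO2 did not pass the filter on low counts, so no fitted change is given for it. Summed reads were 196 in LDPL and 7 in L, a ratio in RPM of 30.2 (95% exact interval 14.4 to 76.2). Leaving out single libraries moved it between 23.7 without LDPL replicate 14 and 61.4 without L replicate 7. Summed over DPL, 3 reads gave a ratio of LDPL over DPL of 69.5 (95% exact interval 23.4 to 340), which lay between 54.4 without LDPL replicate 14 and 179 without DPL replicate 11. With 0 reads over DLDPL, the ratio of DLDPL over LDPL was 0, with an upper end of the 95% exact interval of 0.0187. Genes with at least 0.5 RPM in at least 6 of 8 libraries of 1 group and in 0 of the other 24 were also counted. LDPL had 1 of 17930 listed genes (0.00558%), GSTO2 itself, and L had 8 (0.0446%). The limits follow the values of GSTO2, so these counts are a description.

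The reads of GSTO2 covered a limited stretch of the gene. In the 6 higher LDPL libraries 36.39 to 42.82% of its 1135 bases were covered, or 413 to 486 bases. In the same libraries, 116 to 159 genes with reads and length within 20% of those of GSTO2 had median coverages of 67.05 to 82.77%. Between 5.263 and 17.07% of these genes were covered less than GSTO2. LDPL replicate 14, with 62 reads, covered 471 bases, and LDPL replicate 4, with 22 reads, covered 413. The coverage thus grew little with the number of reads.

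**Figure D4:**
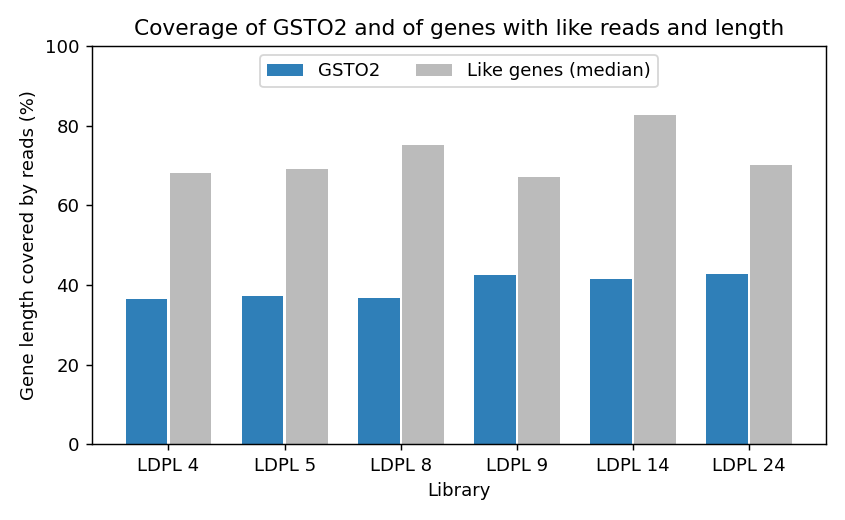
Share of the listed length (%) that reads covered in the 6 LDPL libraries with at least 22 GSTO2 reads, for GSTO2 (blue) and as the median of genes with reads and length within 20% of it in the same library (grey). GSTO2 lies between 36.39 and 42.82% and the like genes between 67.05 and 82.77%.

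GSTO1 is the other omega-class transferase. It held 184 to 667 reads in all 32 libraries, with 17.1 ± 3.54 CPM in DLDPL, 17.0 ± 3.62 in LDPL, 14.7 ± 4.23 in DPL and 16.2 ± 4.53 in L (SD, n = 8 each). It was called in 0 of 6 pairs, with log2 changes of -0.13 to 0.21 and edgeR adjusted p of 0.513 to 0.999. Per length, the median of GSTO1 in LDPL was 15.59 RPKM and that of GSTO2 was 0.836 RPKM. On group-centred log2 CPM, r between GSTO1 and GSTO2 was -0.02 over the 32 libraries.

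Of 8 other glutathione transferases and relatives tested, 1 was higher and 1 lower in DPL than in L, beside 19.1% higher and 18.9% lower of all genes. GSTCD, which carries a transferase-like domain, was at 5.35 ± 2.09 against 2.60 ± 1.23 CPM (SD, n = 8 each; log2 change 1.04, edgeR adjusted p = 0.00408). GSTA4, which clears the lipid aldehyde hydroxynonenal, was at 2.05 ± 0.806 against 3.98 ± 2.16 CPM (log2 change -0.95, edgeR adjusted p = 0.0230). In LDPL against L, 0 of 8 were higher and 1 lower, beside 14.9% higher and 14.7% lower of all genes. The lower one was GSTZ1, an enzyme of tyrosine breakdown (log2 change -0.36, edgeR adjusted p = 0.0199). In DLDPL against L, 1 of 8 was higher and 0 lower, beside 11.6% higher and 10.3% lower of all genes. The higher one was GDAP1, a mitochondrial protein (log2 change 1.20, edgeR adjusted p = 0.0214). Its log2 changes in DPL over L and LDPL over L were 0.91 and 0.96 (edgeR adjusted p = 0.0581 and 0.0539). DESeq2 called both (adjusted p = 0.0399 and 0.0347). No member was called in the other 3 pairs. Of all genes, 2.84% were called in LDPL against DPL, 4.1% in DLDPL against DPL and 0% in DLDPL against LDPL. The list's median log2 change in LDPL over DPL was -0.09, beside -0.001 over all genes.

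In the glutathione and thioredoxin system, which keeps thiols reduced, 13 genes were tested. In DPL against L, 6 of 13 were higher and 1 lower, beside 19.1% higher and 18.9% lower of all genes. Their median change on the log2 scale was 0.42, beside -0.025 over all genes. TXNRD1, the cytosolic thioredoxin reductase, was at 49.1 ± 12.2 against 27.6 ± 3.33 CPM (SD, n = 8 each; log2 change 0.83, edgeR adjusted p = 9.28e-05). GCLC, the catalytic subunit that starts glutathione synthesis, was higher by 0.69 on the log2 scale (edgeR adjusted p = 0.000688). GPX4, which reduces lipid peroxides, and TXN2, mitochondrial thioredoxin, were higher by 0.56 and 0.42 (edgeR adjusted p = 0.000853 and 0.00125).

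In LDPL against L, 3 of 13 members of this list were higher and 2 lower, beside 14.9% higher and 14.7% lower of all genes. TXNRD1 (log2 change 0.85) and GSR, glutathione reductase (1.02), were among those higher (edgeR adjusted p = 0.000116 and 0.000219). In DLDPL against L, 3 were higher and 1 lower, beside 11.6% higher and 10.3% lower of all genes. TXNRD1 (0.65) and GCLC (0.52) were among those higher (edgeR adjusted p = 0.00307 and 0.0149). The GCLC call was lost with limma (adjusted p = 0.0806). In LDPL against DPL, 0 of 13 were higher and 2 lower, beside 1.29% higher and 1.55% lower of all genes. The lower ones were GPX4 and TXN2 (log2 changes -0.45 and -0.35, edgeR adjusted p = 0.0492 and 0.04995). Both calls were lost with limma (adjusted p = 0.131 and 0.206) and with no filter on low counts (0.0676 and 0.0725).

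The genes most like GSTO2 after centring within groups were TEC (r = 0.60), TRIM39 (0.57), DONSON (0.56), KCNAB1 (0.56) and ACAT2 (0.55), over 32 libraries and 12821 genes. With most libraries at 0 reads these values rest on LDPL. For TEC, r was 0.28 by Spearman's rank correlation and 0.08 without centring.

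PON3 was detected in 31 of 32 libraries and varied most within Landrace. DLDPL libraries held 16 reads at the lowest, 125 at the median and 182 at the highest, LDPL libraries 8, 68 and 135, and DPL libraries 20, 126.5 and 333. In L, replicate 2 held 789 reads, replicate 5 held 725, replicate 9 held 583 and replicate 8 held 441. The other 4 L libraries held 32 reads in replicate 7, 17 in replicate 1, 13 in replicate 4 and 0 in replicate 10. L thus held the 4 highest libraries of the series and 3 of its 6 near-zero ones. All 24 libraries of the other groups lay between 8 and 333 reads.

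In the crosses and in DPL the near-zero libraries were single. They were DLDPL replicate 32 with 16 reads, LDPL replicate 10 with 8 and DPL replicate 30 with 20. DLDPL replicate 32 is the library with 0 RPS21 reads. LDPL replicate 10 had the most RPS21 reads of its group, 284, and 2 reads of GSTO2. DPL replicate 19, the DPL library with RPS21, had the most PON3 reads of its group, 333. L replicate 10, with 0 PON3 reads, had 199 RPS21 reads. On group-centred log2 CPM, RPS21 and PON3 had r = 0.28 over the 32 libraries. Within groups of 8 libraries r was 0.89 in DLDPL, -0.70 in LDPL, 0.60 in DPL and 0.18 in L, so the sign differed between groups. In DLDPL replicate 32 was the lowest library for both genes, and in LDPL replicate 10 was the highest for RPS21 and the lowest for PON3.

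On the scale of RPM, PON3 averaged 4.55 ± 2.09 in DLDPL, 2.80 ± 1.60 in LDPL, 4.98 ± 3.30 in DPL and 12.5 ± 13.5 in L (SD, n = 8 each). L had the highest mean and LDPL the lowest, with DPL and DLDPL between them, and the SD of L exceeded its own mean. At the limits of the classes, DPL replicate 30 at 0.804 lay just inside the near-zero class and L replicate 7 at 1.15 just outside it. DPL replicate 26 at 3.81 lay just outside the high class and LDPL replicate 4 at 4.08 just inside it. The gap in L between 32 and 441 reads was 3.69 on the log2(RPM + 0.1) scale, which 30 of 12699 genes (0.236%) reached. Of all listed genes, 2 (0.01115%), PON3 and 1 without a symbol, had 4 L libraries under 2 and 4 at 10 or more RPM. These limits follow the values of PON3, so the count is a description.

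The fitted log2 level differences of PON3 were -1.06 (standard error 0.66) for DPL over L, -1.97 (0.69) for LDPL over L and -1.35 (0.67) for DLDPL over L. Between the other groups they were -0.91 (0.68) for LDPL over DPL, -0.29 (0.67) for DLDPL over DPL and 0.61 (0.68) for DLDPL over LDPL. DLDPL over DPL changed sign to 0.18 (0.70) without DPL replicate 19 and DLDPL replicate 32. The differences from L depended on the measure. As differences of median log2(RPM + 0.1) they were 0.17 for DPL over L, -0.72 for LDPL over L and 0.28 for DLDPL over L, so 2 of the 3 turned. With limma on log2(RPKM + 1) they were -0.30 for DPL over L, -0.83 for LDPL over L and -0.34 for DLDPL over L. The 4 low L libraries lie below the medians of all 3 other groups and the 4 high L libraries above all their libraries. No L library lay between 1.15 and 16.05 RPM, where the mean of L lies.

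Most of the PON3 gene was covered where its reads were many. Its listed length is 1480 bases. In the 4 high L libraries 97.50 to 98.45% was covered, and 13 reads in L replicate 4 still covered 71.62%. Against genes with reads and length within 20% in the same library, the median share covered less than PON3 was 83.03% in DLDPL, 82.87% in LDPL, 71.06% in DPL and 77.70% in L. The lowest coverage of PON3 was 40.20%, in DLDPL replicate 32, against a median of 53.94% for its like genes. LDPL replicate 14 and DPL replicates 7 and 26 also lay below the median of their like genes.

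PON3 lies between PON1 and PON2 in RefSeq's pig annotation, with PPP1R9A and ASB4 the next genes outwards that the files list. PON1 had 0 reads in 27 of 32 libraries and at most 8, and it had 0 reads in all 8 L libraries, the high PON3 ones included. PON2 had no symbol match and is not analysed here. PPP1R9A, a protein of neuronal synapses, was lower in DPL than in L, at 1.44 ± 0.547 against 2.09 ± 0.2848 CPM (SD, n = 8 each; log2 change -0.53, edgeR adjusted p = 0.0221). ASB4, a ubiquitin ligase adaptor, was lower in LDPL than in L, at 22.8 ± 8.63 against 42.9 ± 14.4 CPM (log2 change -0.91, edgeR adjusted p = 0.00534). ASB4 in DPL over L was -0.56 (adjusted p = 0.0691), and -0.65 (adjusted p = 0.0400) without DPL replicate 19 and DLDPL replicate 32. On group-centred log2 CPM over the 32 libraries, r with PON3 was 0.07 for PPP1R9A and -0.08 for ASB4.

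Of the other lipoprotein genes, 8 could be tested, and in DPL against L 2 were higher and 3 lower, beside 19.1% higher and 18.9% lower of all genes. LIPG, endothelial lipase, which breaks down phospholipids of high-density lipoprotein, was at 13.7 ± 4.83 against 1.63 ± 0.724 CPM (SD, n = 8 each; log2 change 3.07, standard error 0.37, edgeR adjusted p = 1.30e-07). LCAT, which esterifies cholesterol in the particle, was higher by 1.24 on the log2 scale (edgeR adjusted p = 0.000300). APOA1, its main protein, and SCARB1, its receptor, were lower (log2 changes -1.27 and -0.47, edgeR adjusted p = 0.000295 and 0.00882). The median log2 change of the list was -0.04, beside -0.025 over all genes.

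LIPG was also higher in LDPL than in L (log2 change 2.58, edgeR adjusted p = 3.36e-06) and in DLDPL than in L (2.33, edgeR adjusted p = 2.44e-05). In LDPL against L, 2 of the 8 were higher and 2 lower, beside 14.9% higher and 14.7% lower of all genes. APOA1 was among those lower (log2 change -0.94, edgeR adjusted p = 0.00640). In DLDPL against L, where 11.6% of all genes were called higher, LIPG was the 1 member called. In DLDPL against DPL, 0 of the 8 were higher and 1 lower, beside 1.98% higher and 2.12% lower of all genes. The lower one was ABCA1, the exporter of cholesterol to apolipoproteins (log2 change -1.58, edgeR adjusted p = 0.0474). That call was lost with limma (adjusted p = 0.158), with no filter on low counts (0.0521) and without DPL replicate 19 and DLDPL replicate 32 (0.146). No member was called in LDPL against DPL or in DLDPL against LDPL, where 2.84% and 0% of all genes were called. ABCA1 in LDPL over DPL was at -1.60 (edgeR adjusted p = 0.0543), and DESeq2 called it there (adjusted p = 0.0163).

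Since PON3 is known from the liver, hepatocyte markers were summed. Of 10 looked up, 4 were in the files, APOA1 among them, and none of the 4 was at 0 in all libraries. Their summed level was 1.18 to 2.97 RPKM in DLDPL, 0.606 to 2.34 in LDPL, 0.752 to 1.32 in DPL and 1.097 to 3.254 in L. The ranges of L and the other groups overlap, and the part of these markers in the PON3 levels was not tested. Macrophage markers, 4 of 6 in the files, summed to 4.84 to 13.7 RPKM in DLDPL, 4.87 to 15.8 in LDPL, 3.98 to 15.5 in DPL and 2.59 to 34.8 in L, the widest range. Lymphocyte markers, 5 of 6 in the files, summed to 0.712 to 1.55 RPKM in DLDPL, 0.998 to 2.28 in LDPL, 0.650 to 2.71 in DPL and 0.970 to 9.325 in L. The part of either list was not tested.

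The genes most like PON3 after centring within groups were CALCRL, a receptor for adrenomedullin on blood vessels (r = 0.64), LRRC14 (0.62), TRAF3IP2 (0.58), CCSER1 (0.57) and S100A14 (0.56), over 32 libraries and 12820 genes. Without DPL replicate 19 and DLDPL replicate 32 the values were 0.59, 0.60, 0.61, 0.52 and 0.54. CALCRL also came first by Spearman's rank correlation, at 0.69.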

How the data were processed

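The authors deposited 1 file per library with 4 value columns, per the file headers. The deposited counts are unnormalised reads mapped uniquely to each gene, and their sum equals the header total in all 32 libraries. The deposited RPKM were reproduced from the count, the listed length and that total to within 2.2e-14 of their size. Coverage, per the file headers, was read as a percent of gene length covered, although 12 deposited values exceed 100. Bowtie 0.12.2, Cufflinks and mm8, a mouse build, are named in the submitters' processing notes. No pig build is given in the sources used here, and no positions or sequences are printed. RNA came from frozen muscle and the library kit, per the labels' protocols, does not mark the strand, so reads of overlapping genes cannot be told apart. A symbol was found for 10836 identifiers (60.4%). Neighbouring genes were read from a RefSeq table of the assembly Sscrofa11.1 and are used by name, since the build of the files is not known.

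Counts were filtered (filterByExpr, minimum count 10, minimum total 15, 12821 genes kept), scaled by TMM and fitted in 1 quasi-likelihood model of the 4 groups with edgeR 4.0.16 in R 4.3.3. P-values were adjusted by Benjamini-Hochberg over all genes tested, and a gene was called under 0.05. RPS21 and PON3 passed the filter and GSTO2 did not. DESeq2 1.42.0, limma 3.58.1 on log2(RPKM + 1), other scalings, cutoffs and left-out libraries were alternatives. The standard errors of edgeR differences are the size of the log2 change over the square root of its quasi-likelihood F value. They are thus derived from that test and approximate. Read ratios have 95% exact intervals, and gaps use log2(RPM + 0.1). The likeness of genes is Pearson's r of log2 CPM (prior count 2).

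The members and the gene lists were chosen with earlier results of these data known. Named genes were the 3 members, their paralogs and neighbours, the 5 genes most like each, and from each list up to 4 with the smallest adjusted p in DPL against L and up to 2 in each other pair, of which the called ones are given. The labels count 8 pigs per group and say nothing further on separate animals, so p-values measure the spread of these libraries, which could be technical.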

Additional observations from a re-analysis of the deposited data

Results flagged for a closer look

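In 15 sets of 8 libraries (1 gene in 1 group), a library was singled out when its gap to the nearest other library was large against the whole range of the set, which chance does in about 1 set of 20. The 3 genes were picked because their reads ran from near 0 to well above it between pigs. That rate is therefore no measure for them, and the values below are a description. A library was singled out in 5 sets, all of RPS21 or PON3. The 15 sets go beyond those of the 3 genes. In RPS21, DLDPL replicate 32 was far below its group at 0 RPM, LDPL replicate 10 was far above its group at 11.8, and DPL replicate 19 was far above its group at 7.51. In PON3, DLDPL replicate 32 was far below its group at 0.624 RPM, and LDPL replicate 10 was far below its group at 0.331. The 5 values come from 3 libraries, since DLDPL replicate 32 and LDPL replicate 10 each appear for both genes. The split of PON3 in L was not singled out this way, because each side of it holds 4 libraries.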

How the results depend on the processing

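Of 484 values with an alternative for the main comparisons, 432 moved by no more than 1.5-fold for counts, 1 SD for levels or the counting interval for ratios. Of 779 for list counts, named genes and correlations, 721 stayed within such limits, 13 calls were lost and 14 gained. Near-zero counts for GSTO2 in LDPL were 2 with limits of 0.5 and 2 RPM, 7 with limits of 2 and 8, and 2 at the largest gap. For PON3 they were 0 in DLDPL and 0 in DPL with limits of 0.5 and 2, 3 in LDPL and 2 in DPL with limits of 2 and 8, and 0, 0, 0 and 1 in DLDPL, LDPL, DPL and L at the largest gap. With limits of 2 and 8, high counts for RPS21 were 2, 1, 0 and 3 in DLDPL, LDPL, DPL and L. For GSTO2 in LDPL, high counts were 1 with limits of 0.5 and 2 and 6 at the largest gap. For PON3 they were 1, 0 and 1 in DLDPL, LDPL and DPL in RPKM, 5 in LDPL with limits of 0.5 and 2, 0, 0 and 1 in DLDPL, LDPL and DPL with limits of 2 and 8, and 8, 8 and 7 in LDPL, DPL and L at the largest gap.

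The RPS21 differences were -6.77 (DPL over L), 6.51 (LDPL over DPL) and 6.64 (DLDPL over DPL) without DPL replicate 19 and DLDPL replicate 32, an alternative chosen after seeing the data, and -5.74, 5.30 and 5.56 as differences of medians. Leaving out single libraries gave ranges of -6.77 to -2.48, 2.19 to 6.51 and 2.15 to 6.45 for RPS21, and of 23.7 to 61.4 (LDPL over L) and 54.4 to 179 (LDPL over DPL) for the GSTO2 ratios. Of the log2 level differences, which carry no call, 10 took the opposite sign, and all 10 count among the 432 values within limits. For PON3 these were 0.17 (DPL over L), 0.28 (DLDPL over L) and 0.11 (DLDPL over DPL) as differences of medians, and for DLDPL over DPL also 0.02 without DPL replicate 19 and 0.18 without that library and DLDPL replicate 32. RPS21 in DLDPL over LDPL gave 0.04 to 0.26 in 5 settings, against -0.07. The limit of 1 SD was wide, at 2.4 for PON3 in DPL over L and 1.59 for RPS21 in DLDPL over LDPL.

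Genes called higher in DPL against L numbered 1277 with limma. LDPL against L gave 1214 higher with limma. LDPL and L share 5 replicate numbers, which come from separate series of titles. Their deviations correlated at -0.101 to 0.0666, and 0 of 5 correlated best with their own number, so they were not taken as pairs. Over these 10 libraries LDPL against L gave 993 higher and 808 lower with the replicate block, and 1191 and 978 over the same libraries with no block, a setting added after seeing the data, against 1905 and 1889 over all libraries. LDPL against DPL gave 270 higher and 347 lower with DESeq2, 51 lower with limma and 130 lower with no filter. DLDPL against DPL gave 397 higher with limma, 425 lower with DESeq2 and 53 lower with limma. DLDPL against LDPL gave 26 higher and 7 lower with DESeq2 and 2 lower with no filter. The cause was not tested. Levels under about 0.14 RPM are beyond the depth of single libraries.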

Other observations

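A search for other genes that split a group as PON3 splits L, with 4 libraries under 2 and the other 4 at 10 or more RPM, found SMDT1, a small subunit of the mitochondrial calcium uniporter, in 3 of the 4 groups. It was chosen after its values were seen. In DLDPL the 4 lower libraries held at most 6 reads and the 4 higher ones (replicates 6, 20, 27 and 32) at least 396. In LDPL the lower ones held at most 2 reads and the higher ones (replicates 4, 10, 15 and 24) at least 365. In DPL the lower ones held at most 28 reads and the higher ones (replicates 7, 19, 23 and 30) at least 341. L had no library at 10 RPM, with a lowest count of 0, a median of 113 and a highest count of 168 reads. Near-zero libraries for SMDT1 numbered 3 of 8 in L. DLDPL replicate 32, DPL replicate 19 and LDPL replicate 10, the libraries that stand apart in RPS21 or PON3, were all on the higher side for SMDT1, as were 9 other libraries.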
